A study of Homo sapiens with 24 samples.

Results

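The 10 genes described here belong to the ETS family of transcription factors, and they are ETS1, ETS2, ELF1, ELF3, EHF, ELK3, ETV4, ETV5, ETV6 and SPDEF. They were taken as all probe sets whose platform annotation gives only one of these symbols, which gave 36 probe sets for the 10 genes, among 19775 genes with a probe set of a single symbol. A probe set is a group of short probes on the array that together measure one transcript. The 21 member probe sets that passed the filter on dim signal stood for 9 of the 10 genes, among 12008 genes tested in all.

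RWPE1 is an immortalized, non-tumorigenic cell line from human prostate epithelium. Growing cultures were exposed for 6, 24 or 48 h to 1,25(OH)2D (the active vitamin D hormone, 100 nM) or to ethanol as vehicle. Cultures kept for 48 h were given new medium after 24 h. Each of the 6 groups had 4 arrays (Affymetrix U133 Plus 2.0), 24 arrays in all, and every group shares this one cell line as the model. The labels number the replicates as biological without saying how the cultures were separated, so p-values measure only the spread between these samples. Values are log2 gcRMA intensities, on which a difference of 1 is a 2-fold change, and levels of different probe sets are not compared. A change was called at an adjusted p under 0.05 (limma, Benjamini-Hochberg over all probe sets tested).

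ETS factors share a DNA-binding domain that recognises a core of GGAA, and their flanking sequences and partners set which promoters they act on. Several of them, among them ETS1, ETS2, the PEA3 group (ETV4 and ETV5) and the ternary complex factors (ELK3), are phosphorylated through the MAP kinase cascade, and others such as ETV6 repress. In the prostate the family is best known for gene fusions of ERG and ETV1 in cancer, while ELF3, EHF and SPDEF are marks of differentiated epithelium.

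ETS2 had the largest called change of the 10 genes with 1,25(OH)2D, so the 250 bases before each of its 2 annotated starts are shown, from RefSeq on GRCh38.p14, chromosome 21, plus strand. Capitals mark the ETS core, GGAA, or TTCC where it lies on the other strand. The first stretch is chr21:38804933-38805182 and the second is chr21:38805679-38805928.
ETS2 start 1: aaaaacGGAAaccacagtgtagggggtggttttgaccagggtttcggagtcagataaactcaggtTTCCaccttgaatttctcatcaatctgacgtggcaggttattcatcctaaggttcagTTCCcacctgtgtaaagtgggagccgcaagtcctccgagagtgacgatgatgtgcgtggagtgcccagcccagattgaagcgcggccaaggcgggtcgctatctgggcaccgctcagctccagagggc
ETS2 start 2: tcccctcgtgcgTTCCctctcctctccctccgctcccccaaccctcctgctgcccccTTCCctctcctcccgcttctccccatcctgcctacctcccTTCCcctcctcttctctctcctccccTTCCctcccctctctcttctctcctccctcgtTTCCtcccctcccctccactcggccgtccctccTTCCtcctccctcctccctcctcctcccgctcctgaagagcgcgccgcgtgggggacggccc
The core occurs 3 times before start 1 and 6 times before start 2. Of 35116 human promoter stretches of this length, 92.7% hold GGAA on either strand, the median is 3 matches, and 9.14% hold 6 or more. The longer ETS site CCGGAAGT, searched on both strands, has no match before either start and is found in 3.42% of promoters. The AP-1 site TGANTCA has none either, against 6.57% of promoters. Single hexamers of the vitamin D receptor type were searched on both strands as AGGTCA and as its variants written AGTTCA and also GGGTCA besides the form GGTTCA. They have 1 match before start 1, which does not overlap a GGAA core, and none before start 2, and 33.8% of promoters hold one. A direct repeat of these hexamers with 3 bases between them has no match before either start, as in all but 0.0655% of promoters. The promoter table matched 7 of the 10 genes, all but ETS1, ETV4 and ETV5.

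The arrays differed in ways that the groups do not account for. After group means were subtracted, 1 component carried 71.9% of the remaining variance, and 4 arrays stood apart on it. These were replicates 1 and 4 of the 24 h 1,25(OH)2D group, replicate 1 of the 24 h vehicle group and replicate 1 of the 6 h vehicle group. The mean SD per tested probe set at 6 h was 0.259 with 1,25(OH)2D and 0.272 with vehicle. At 24 h it was 0.399 with 1,25(OH)2D and 0.253 with vehicle, and at 48 h 0.161 and 0.119. The 5 reference genes had 0 calls at each time (limma, with 1, 0 and 0 of them at an unadjusted p under 0.05 at 6, 24 and 48 h, and 1, 1 and 0 called by SAM, the study's test by relabelling arrays). All 6 basal markers with a probe set were tested (KRT5 averaged 15.3 and KRT14 16.1), and of 5 luminal markers with a probe set KLK3 alone was tested, at 3.92 against a lowest kept value of 3.205. Leukocyte markers PTPRC and LYZ averaged 3.37 and 3.25.

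ETS2, a nuclear effector of the MAP kinase pathway, was lower with 1,25(OH)2D at 6 h on both of its bright probe sets. Probe set 201328_at read 8.89, 8.91, 9.09 and 9.05 in the 4 arrays with 1,25(OH)2D, against 10.22, 10.71, 10.52 and 10.89 in the vehicle arrays. Every treated array lay below every vehicle array, with a gap wider than the spread within either group. The log2 change was -1.60 ± 0.15 (SE, n = 4 each), 3.03-fold lower with 1,25(OH)2D (limma, adjusted p = 0.000777). The second bright probe set, 201329_s_at, read 8.71, 8.67, 8.82 and 8.75 with 1,25(OH)2D and 9.90, 10.19, 10.10 and 10.34 in vehicle arrays. It fell 2.64-fold (log2 change -1.40 ± 0.11, limma adjusted p = 0.000288), and its groups did not overlap either. In a cell population, fewer cells of a type and less RNA per cell cannot be told apart. The dim ETS2 probe set, 241193_at, stayed between 3.26 and 4.04 in all 24 arrays, close to the lowest value kept, and its change at 6 h was -0.024 ± 0.069.

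At 24 and 48 h ETS2 did not pass the limma test on either probe set. At 24 h 201328_at read 10.79, 10.55, 10.73 and 10.14 with 1,25(OH)2D and 10.73, 11.17, 11.07 and 11.21 with vehicle, so that the groups overlapped (-0.49 ± 0.17, limma adjusted p = 0.487). The groups of 201329_s_at did not overlap at 24 h, at 10.50, 10.40, 10.54 and 10.21 with 1,25(OH)2D and 10.62, 10.80, 10.84 and 10.84 with vehicle (-0.36 ± 0.10, limma adjusted p = 0.329), and SAM called it. At 48 h 201328_at read 10.62, 11.29, 10.78 and 10.70 with 1,25(OH)2D and 11.19, 11.09, 11.18 and 11.18 with vehicle (-0.31 ± 0.14, limma adjusted p = 0.232). Replicate 2 of the treated 48 h arrays was the highest of all 24, above every vehicle array, and the other 3 were below them all. Without that array the 48 h change was -0.46 (limma adjusted p = 0.00221) and that of 201329_s_at -0.37 (limma adjusted p = 0.0326), both past the threshold. For 201328_at this was the 1 of 8 single-array omissions that passed at 48 h, and 0 of 10 other alternatives did. The effect at 48 h minus the effect at 6 h was 1.29 ± 0.23 for 201328_at (limma adjusted p = 0.00166) and 1.11 ± 0.15 for 201329_s_at (limma adjusted p = 7.81e-05), the 2 member probe sets called in this comparison of 21, beside 2.8% of all tested probe sets.

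**Figure D1:**
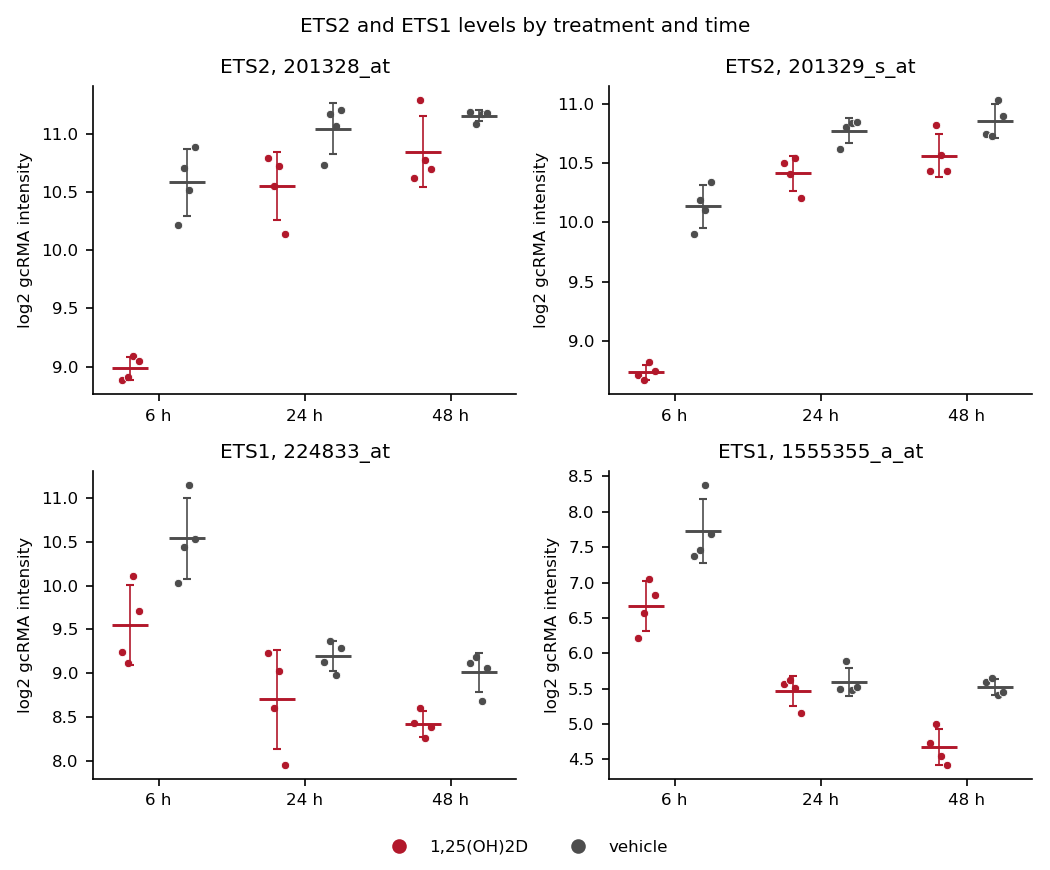
Log2 gcRMA intensity (vertical axis) of 2 probe sets of ETS2 and 2 of ETS1 by time, with 1,25(OH)2D arrays in red to the left of vehicle arrays in grey. Points are arrays (4 per group), wide bars are group means and error bars SD. The treated ETS2 arrays at 6 h lie between 8.67 and 9.09, below all others of the gene, and ETS1 is highest in vehicle at 6 h.

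ETS1, the founding member of the family and the closest relative of ETS2, was lower with 1,25(OH)2D at 48 h. Probe set 224833_at read 8.43, 8.61, 8.26 and 8.38 with 1,25(OH)2D and 9.12, 9.18, 8.69 and 9.06 with vehicle. Probe set 1555355_a_at read 4.73, 5.01, 4.55 and 4.42 with 1,25(OH)2D and 5.59, 5.64, 5.41 and 5.45 with vehicle. In both, all treated arrays lay below all vehicle arrays. The log2 changes were -0.59 ± 0.12 (limma adjusted p = 0.0201) and -0.85 ± 0.12 (limma adjusted p = 0.00508), and the dimmest, 214447_at, changed by -0.47 ± 0.23 with overlapping groups (limma adjusted p = 0.279). The call of 1555355_a_at held without any one of the 8 arrays (limma adjusted p from 0.00128 to 0.0205). That of 224833_at was lost without vehicle replicate 1, 2 or 4 or 1,25(OH)2D replicate 3 or 4 (log2 changes from -0.58 to -0.54, limma adjusted p from 0.0544 to 0.0608), and also with all 24 arrays in one fit (adjusted p = 0.324) or without the filter (adjusted p = 0.06).

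At 6 h all 3 ETS1 probe sets averaged lower with 1,25(OH)2D, without passing the limma test on the 8 arrays of that time, and with calls under some alternatives. Probe set 224833_at read 9.25, 9.12, 10.11 and 9.71 with 1,25(OH)2D and 10.03, 10.45, 11.16 and 10.54 with vehicle, and 1 treated array, replicate 3, lay above the lowest vehicle array. The groups of 1555355_a_at, 6.22, 6.57, 7.05 and 6.82 with 1,25(OH)2D and 7.38, 7.46, 8.38 and 7.69 with vehicle, did not overlap. Nor did those of 214447_at, with treated arrays between 5.63 and 6.13 and vehicle arrays between 6.29 and 7.59. The log2 changes were -0.99 ± 0.29, -1.06 ± 0.26 and -1.0 ± 0.27 (limma adjusted p = 0.179, 0.0911 and 0.145). All 3 passed with the spread taken from 24 arrays in one fit (limma adjusted p = 0.0251, 0.00137 and 0.0167), and SAM called all 3 as well. With arrays centred on their medians 224833_at and 1555355_a_at passed (limma adjusted p = 0.0474 and 0.0281). At 24 h the changes were -0.49 ± 0.27, -0.13 ± 0.14 and -0.21 ± 0.16, all with overlapping groups.

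ETS1 also differed between times of harvest. The 6 and 24 h cultures differed in hours since the last medium change as well, which the design cannot tell apart from time in culture. In a fit of all 6 groups, vehicle at 24 h was lower than vehicle at 6 h by log2 changes of -1.35 ± 0.25, -2.13 ± 0.20 and -1.72 ± 0.24 for 224833_at, 1555355_a_at and 214447_at (limma adjusted p = 0.00181, 7.55e-07 and 0.000109). With 1,25(OH)2D the 24 h arrays were lower than the 6 h arrays by -0.84 ± 0.25, -1.20 ± 0.20 and -0.93 ± 0.24 (limma adjusted p = 0.0287, 0.000256 and 0.0127). The first of these calls was lost without 1,25(OH)2D replicate 3 or 4 at 6 h or replicate 2 or 4 at 24 h (log2 changes from -0.81 to -0.59, limma adjusted p from 0.0721 to 0.134). Between 48 and 24 h vehicle arrays had no ETS1 call, and with 1,25(OH)2D 1555355_a_at fell further, by 0.79 on the log2 scale (limma adjusted p = 0.0406). The treatment comparison at 6 h and the vehicle comparison over time share the vehicle 6 h arrays.

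Ordered by mean, 224833_at of ETS1 was highest in vehicle at 6 h (10.54 ± 0.47, SD, n = 4), then 1,25(OH)2D at 6 h (9.547 ± 0.46), vehicle at 24 h (9.193 ± 0.17), vehicle at 48 h (9.013 ± 0.22), 1,25(OH)2D at 24 h (8.703 ± 0.57) and 1,25(OH)2D at 48 h (8.419 ± 0.14). Neighbours in this order overlapped throughout. For 201328_at of ETS2 the order was vehicle at 48 h (11.16 ± 0.045), vehicle at 24 h (11.05 ± 0.22), 1,25(OH)2D at 48 h (10.85 ± 0.30), vehicle at 6 h (10.58 ± 0.29), 1,25(OH)2D at 24 h (10.55 ± 0.30) and 1,25(OH)2D at 6 h (8.984 ± 0.10). The last step, of 1.6 log2 units, was the one place in it where neighbours did not overlap.

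Across the family, 2 of 21 tested probe sets were called at 6 h, both lower with 1,25(OH)2D and both of ETS2, where 2.69% of all tested probe sets were called and 0.781% called lower. At 24 h 0 of 21 were called by limma, with 3 at an unadjusted p under 0.05 and 1 called by SAM (201329_s_at of ETS2), where 0.354% of all were called. At 48 h the 2 calls, both lower and both of ETS1, stood beside 9.64% of all probe sets called and 5.63% called lower. Groups did not overlap for 5 of 21 probe sets at 6 h, 2 at 24 h and 3 at 48 h, against 7.32%, 5.19% and 16.1% of all. The 48 h share of calls among the members, 2 of 21, was near that of the array as a whole. Taking one probe set per gene, the 9 genes had a median log2 change of -0.018 (6 h), -0.23 (24 h) and -0.11 (48 h), beside -0.029, 0.011 and -0.0091 for all 12008 genes.

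**Figure D2:**
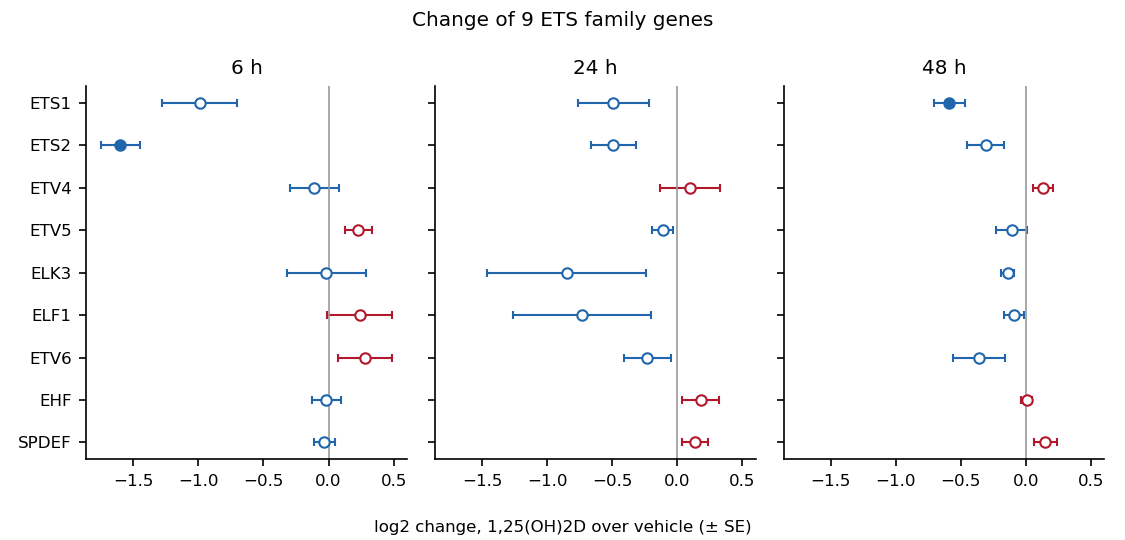
Log2 change with 1,25(OH)2D over vehicle (horizontal axis, error bars SE) of the brightest tested probe set of 9 ETS family genes at 6, 24 and 48 h. Red is above 0, blue below 0, and filled points passed the test: ETS2 at 6 h (-1.60) and ETS1 at 48 h (-0.59).

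The PEA3 group, ETV4 and ETV5, are activators that respond to growth factor and MAP kinase signals. ETV5 had no call with treatment, where the changes of 203349_s_at were 0.23 ± 0.10, -0.11 ± 0.081 and -0.11 ± 0.12 at 6, 24 and 48 h (limma adjusted p = 0.548, 0.601 and 0.705). It was called between times. At 6 h it read 9.88, 9.82, 9.55 and 9.81 with 1,25(OH)2D and 9.68, 9.50, 9.45 and 9.50 with vehicle. At 24 h the values were 10.06, 10.11, 10.11 and 10.12 with 1,25(OH)2D and 10.38, 10.12, 10.12 and 10.21 with vehicle. The 24 h arrays lay above all 6 h arrays of either treatment, and at 24 h the treated arrays lay just below the vehicle arrays, with a gap that rounding hides.

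Vehicle at 24 h was higher than at 6 h by 0.67 ± 0.10 for 203349_s_at (limma adjusted p = 0.000277) and by 0.75 ± 0.22 for 230102_at (limma adjusted p = 0.0424), and with 1,25(OH)2D the first rose by 0.34 ± 0.10 (limma adjusted p = 0.0319) and the second changed by 0.56 ± 0.22 (limma adjusted p = 0.0854). The call with 1,25(OH)2D was lost without replicate 3 or 4 at 6 h or replicate 2, 3 or 4 at 24 h (0.26 to 0.35, limma adjusted p from 0.0512 to 0.142). The other 2 tested ETV5 probe sets, 203348_s_at and 216375_s_at, had no call. ETV4 stayed between 8.31 and 9.37 on 1554576_a_at in all groups, with changes of -0.11 ± 0.19, 0.10 ± 0.23 and 0.13 ± 0.078, and its second probe set changed by 0.033 ± 0.22, 0.12 ± 0.25 and -0.029 ± 0.061. Neither had a call in any of the 8 comparisons.

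ETS2 rose with time as well. On 201329_s_at vehicle at 24 h was above vehicle at 6 h by 0.64 ± 0.10 (limma adjusted p = 0.000533), while 201328_at changed by 0.46 ± 0.16 (limma adjusted p = 0.0897). With 1,25(OH)2D the same step was 1.68 ± 0.10 and 1.57 ± 0.16 (limma adjusted p = 6.61e-10 and 7.58e-07). This step and the treatment comparison at 6 h share the 1,25(OH)2D 6 h arrays, so they are not separate results. In all, 6 of 21 member probe sets were called between 24 and 6 h in vehicle, beside 7.82% of all tested, and 6 of 21 with 1,25(OH)2D, beside 16.7%. They were the ones of ETS1, ETS2 and ETV5 named above. Between 48 and 24 h 0 of 21 were called in vehicle (limma, 1 at an unadjusted p under 0.05), beside 0.316% of all, and 1 of 21 with 1,25(OH)2D, beside 1.91%.

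ELK3, a ternary complex factor that acts with serum response factor, and ELF1, an activator of the ELF group, gave wide spreads at 24 h. ELK3 (221773_at) read 9.995, 9.10, 9.08 and 7.13 with 1,25(OH)2D at 24 h and 8.79, 10.07, 9.72 and 10.13 with vehicle. ELF1 (212418_at) read 8.93, 7.94, 8.37 and 6.27 with 1,25(OH)2D and 8.21, 8.89, 8.59 and 8.76 with vehicle. In both genes replicate 4 with 1,25(OH)2D was the lowest array of all 24 and replicate 1 of vehicle was the lowest of its group, and both arrays are among the 4 that stood apart.

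The 24 h changes were -0.85 ± 0.61 for ELK3 and -0.73 ± 0.53 for ELF1 (limma adjusted p = 0.601 for both). The within-group deviations of ELK3 and ELF1 correlated with the component at r = 0.966 and 0.939 over the 24 arrays. Those of ETV4 (-0.905) and EHF (-0.952) ran the opposite way, that of ETS2 was 0.815 and that of ETS1 0.812. These values describe arrays that share their processing. The log2 signal of the ACTB 3′ control minus that of its 5′ control, a measure of RNA integrity, was 0.73, 0.535, 0.592 and 0.459 in the 24 h arrays with 1,25(OH)2D and 0.671, 0.73, 0.654 and 0.714 in the vehicle arrays. Replicate 4 with 1,25(OH)2D was the lowest of all 24 arrays (0.459 to 0.816) and replicate 1 the highest of its group, and both are among the 4 that stood apart. The part of the component and of this difference in any change was not tested. Without the 4 arrays, a choice made after seeing the data that left 2 treated and 3 vehicle arrays at 24 h, ELK3 was called lower at 24 h (-0.88, limma adjusted p = 0.0212), as was ETS2 (-0.51 and -0.35, limma adjusted p = 0.0244 and 0.0319). In that fit 21.2% of all probe sets were called. ELF1 was not called there. At 48 h, where no array stood apart, ELK3 read 9.26, 9.33, 9.43 and 9.43 with 1,25(OH)2D and 9.54, 9.45, 9.51 and 9.51 with vehicle, without overlap but not past the test (-0.14 ± 0.052, limma adjusted p = 0.143).

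**Figure D3:**
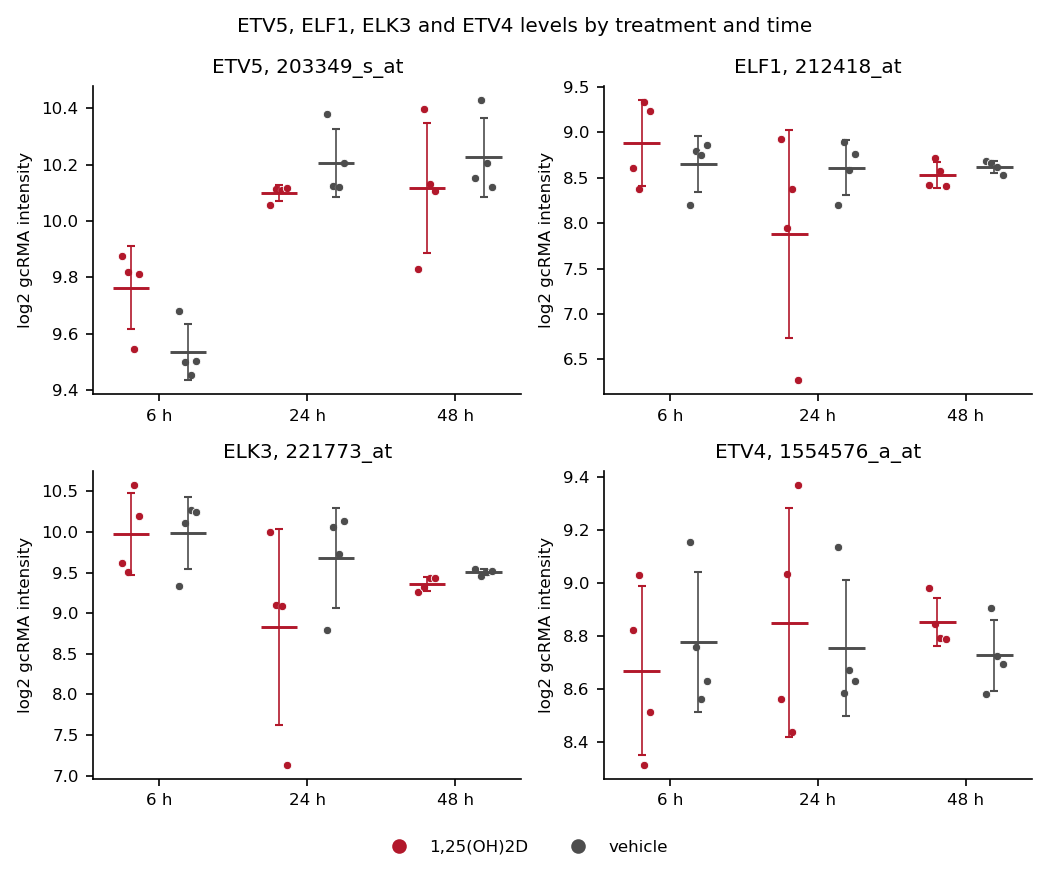
Log2 gcRMA intensity (vertical axis) of ETV5, ELF1, ELK3 and ETV4 by time, with 1,25(OH)2D arrays in red to the left of vehicle arrays in grey. Points are arrays (4 per group), wide bars group means and error bars SD. ETV5 means are higher at 24 and 48 h than at 6 h in both treatments, and replicate 4 of 1,25(OH)2D at 24 h is the lowest array for ELF1 (6.27) and ELK3 (7.13).

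ETV6, a repressor of the TEL group, had 4 tested probe sets and no call. On 235056_at the changes were 0.28 ± 0.21, -0.23 ± 0.18 and -0.36 ± 0.20 at 6, 24 and 48 h. Of its other probe sets, 225764_at changed by 0.38 ± 0.34, -0.58 ± 0.24 and -0.20 ± 0.18. The treated arrays of 205585_at at 6 h, 3.88, 3.79, 3.77 and 3.78, lay above the vehicle arrays, 3.73, 3.65, 3.598 and 3.76, by 0.12 ± 0.077 (limma adjusted p = 0.917). This was the one member probe set whose treated arrays all lay above the vehicle arrays, and both groups were close to the lowest value kept.

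Of the epithelial members, ELF3 was under the filter on every probe set, EHF was close to the lowest value kept (3.205), and SPDEF had 1 brighter probe set among dim ones. All 3 probe sets of ELF3 averaged between 2.11 and 2.50 and none was tested. Of 6 EHF probe sets 222932_at alone was tested, with arrays between 3.56 and 4.21, and the other 5 averaged between 1.94 and 2.64. Of 5 SPDEF probe sets 214403_x_at alone was tested, at a mean of 5.63. It read 5.90, 5.56, 5.60 and 5.92 with 1,25(OH)2D at 48 h and 5.61, 5.59, 5.60 and 5.57 with vehicle, the 2 higher treated arrays being replicates 1 and 4. The remaining 4 SPDEF probe sets averaged between 2.31 and 2.83, and the ending x_at marks probe sets with probes that can bind other transcripts. Changes were -0.018 ± 0.11, 0.18 ± 0.14 and 0.0049 ± 0.041 for EHF and -0.033 ± 0.082, 0.14 ± 0.10 and 0.15 ± 0.089 for SPDEF at 6, 24 and 48 h, with overlapping groups and no call. SPDEF was called in 1 of the alternatives, higher with 1,25(OH)2D at 24 h than at 6 h once replicate 1 of the treated 24 h arrays was left out (log2 change 0.24, limma adjusted p = 0.0426). For ELF3, which had no tested probe set, no change could be tested, and a low signal is not evidence that a gene is absent.

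**Figure D4:**
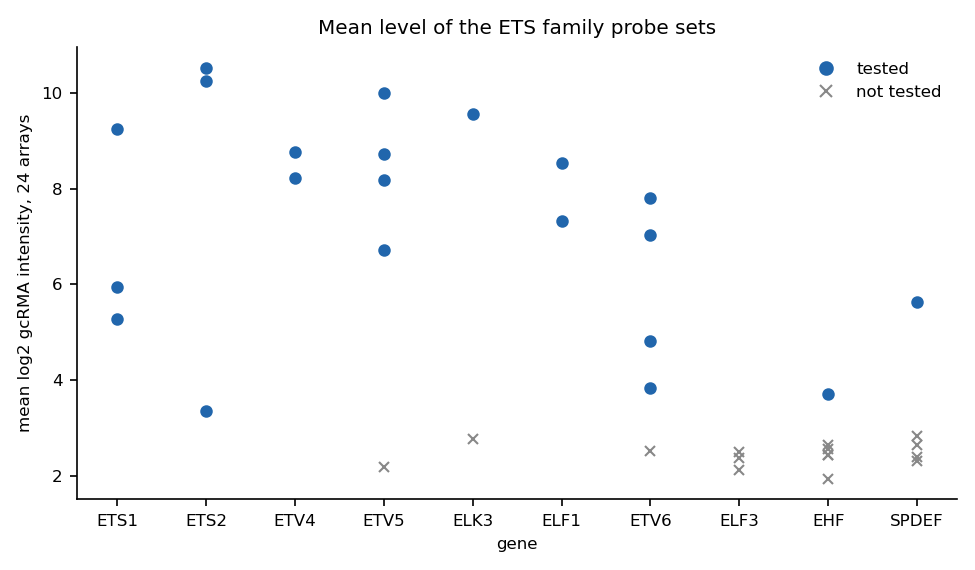
Mean log2 gcRMA intensity over 24 arrays (vertical axis) of the 36 probe sets of the 10 genes (horizontal axis). Blue circles were tested and grey crosses were under the filter, and levels of different probe sets are not comparable as transcript amounts. All 3 probe sets of ELF3 are crosses, between 2.11 and 2.50.

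Of 18 other ETS family genes 17 had a probe set and 12 were tested. FLI1, an activator best known in blood and endothelial cells, was lower with 1,25(OH)2D at both 6 and 48 h on its brightest probe set, 204236_at. At 6 h it read 5.42, 5.43, 5.79 and 5.46 with 1,25(OH)2D and 6.93, 6.78, 7.55 and 6.73 with vehicle. At 48 h it read 4.33, 4.41, 4.04 and 4.33 with 1,25(OH)2D and 5.41, 5.40, 5.09 and 5.34 with vehicle. The groups did not overlap at either time, and the log2 changes were -1.47 ± 0.19 and -1.03 ± 0.10 (limma adjusted p = 0.00476 and 0.000737).

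Like ETS1, FLI1 was lower in vehicle at 24 h than at 6 h, by -1.37 ± 0.18 (limma adjusted p = 6.03e-05). Its other 2 tested probe sets, 210786_s_at and 211825_s_at, changed by -0.52 ± 0.44 and -0.65 ± 0.31 at 6 h and by -0.041 ± 0.071 and -0.10 ± 0.12 at 48 h, without a call, so that the 48 h fall was seen on 204236_at and not on the others. In the RefSeq annotation of GRCh38.p14 ETS1 and FLI1 are neighbours on chromosome 11 with 0 protein-coding genes between them. ETV1, also of the PEA3 group, read 6.27, 6.13, 6.54 and 6.29 on 221911_at with 1,25(OH)2D at 48 h and 7.47, 7.41, 6.79 and 6.76 with vehicle, with no overlap. Its change was -0.80 ± 0.19 (limma adjusted p = 0.0341), and the call was lost without vehicle replicate 1 or 2 or without any one treated array (-0.88 to -0.68, limma adjusted p from 0.0523 to 0.0881). On 206501_x_at and 217061_s_at ETV1 changed by -0.67 ± 0.18 and -0.83 ± 0.22 at 48 h without a call (limma adjusted p = 0.0633 and 0.0547). The list's 1 call of 12 genes at 6 h and 2 at 48 h stand beside the 3.41% and 12% of all 12008 genes called, no other gene of it was called at any time with treatment, and its median change was -0.11, -0.085 and -0.10 at 6, 24 and 48 h.

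FLI1 is also an endothelial gene, so the endothelial list was read beside it. KDR, 1 of its 2 tested markers of 5 with a probe set, lay between 3.596 and 3.834 with 1,25(OH)2D at 48 h and between 4.258 and 6.043 with vehicle (-1.58 ± 0.36, limma adjusted p = 0.0312). The summed level of the 5 markers ran between 15.4 and 16.2 with 1,25(OH)2D and between 15.8 and 17.7 with vehicle at 48 h. At 6 h it ran between 14.2 and 16 with 1,25(OH)2D and between 14.6 and 15.6 with vehicle. PECAM1, the other tested marker, went the opposite way at 48 h without a call, with arrays between 3.59 and 4.417 with 1,25(OH)2D and between 3.39 and 3.528 with vehicle (0.39 ± 0.17, limma adjusted p = 0.204). VWF, CDH5 and TEK were under the filter. The basal list summed to 75.0 to 75.5 with 1,25(OH)2D and 76.6 to 77.1 with vehicle at 48 h, where 1 of its 6 tested genes rose and 2 fell, with a median change of 0.035. KRT15 fell by 1.92 and ITGB4 by 0.37 on the log2 scale (limma adjusted p = 9.35e-05 and 0.0415), LAMB3 rose by 0.47 (limma adjusted p = 0.012), and DSG3, KRT14 and KRT5 changed by 0.21, 0.057 and 0.013 without a call. The fibroblast list (1 of 5 tested) summed to 21.2 to 21.7 with 1,25(OH)2D and 21.8 to 22.4 with vehicle at 48 h, and COL1A1, the tested one, fell by 0.60 on the log2 scale (limma adjusted p = 0.0136). The part of these shifts in the ETS1 and FLI1 results was not tested.

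By the likeness of their pattern over the 24 arrays (Pearson's r between the brightest tested probe sets, among 12008 genes), the genes most like ETS1 were NABP1 (0.938), a single-stranded DNA binding protein, SLC39A14 (0.936), a metal transporter, and AMIGO2 (0.935), an adhesion protein, and FLI1 stood at 0.914. For ETS2 they were PHACTR3 (0.958), a regulator of protein phosphatase 1 and actin, FIBIN (0.953) and PRICKLE1 (0.942), of the planar polarity pathway. PHACTR3 read 6.18, 5.67, 5.95 and 6.03 with 1,25(OH)2D at 6 h and 9.68, 9.86, 10.53 and 10.04 with vehicle, and it lay between 9.51 and 10.85 in the arrays of the later times. ETS1 and ETS2 themselves had an r of -0.181. The arrays share their groups and their processing, so these are descriptions of pattern over 24 arrays.

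The MAP kinase cascade and the regulators of ETS factors had 1 call. Of 18 listed genes 13 were tested, and 0 were called at 6 and 24 h (limma, with 1 and 3 at an unadjusted p under 0.05, and 0 and 1 called by SAM). At 48 h HRAS, a GTPase upstream of the cascade, rose by 0.37 ± 0.083 (limma adjusted p = 0.0294), 1 of 13 genes beside 12% of all 12008 genes called at that time.

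Genes that the cascade drives moved in both directions at 6 h. Of 15 tested, 2 rose and 5 fell, beside 2.37% of all 12008 genes called higher and 1.04% called lower. FOS, an AP-1 subunit, read 8.15, 8.44, 8.14 and 8.19 with 1,25(OH)2D and 3.02, 3.55, 3.74 and 3.86 with vehicle, 25.8-fold higher (log2 change 4.69 ± 0.18, limma adjusted p = 9.26e-06). Its vehicle arrays lay close to the lowest value kept (3.205), so the size of this fold change is uncertain. FOSL1, another AP-1 subunit, rose by 1.44 ± 0.16 (limma adjusted p = 0.00252). In all 4 treated arrays FOS lay far above the vehicle arrays, the opposite direction to ETS2.

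Falls were called in the 5 genes that follow, and apart from FOS and FOSL1 the list's other tested genes had no call at 6 h. PHLDA1 read 8.60, 8.47, 8.19 and 8.23 with 1,25(OH)2D and 9.89, 9.67, 9.82 and 9.68 with vehicle (-1.39 ± 0.12, limma adjusted p = 0.000483). DUSP6, an ERK phosphatase, read 10.10, 9.997, 10.66 and 10.17 with 1,25(OH)2D and 10.84, 11.54, 12.02 and 11.88 with vehicle (-1.34 ± 0.27, limma adjusted p = 0.0417). Treated arrays of both genes lay below all vehicle arrays. IER3, DUSP5 (a nuclear ERK phosphatase) and SPRY2 (a feedback inhibitor of receptor signals) fell by 1.21, 0.95 and 0.48 on the log2 scale. SPRY2 at 6 h is named to complete the 5 and was chosen after its values were seen. The list's median change at 6 h was -0.29 against -0.029 for all genes. At 24 h SPRY2 alone was called by limma, lower by 0.70, beside 0.516% of all genes called. At that time 7 of the 15 had an unadjusted limma p under 0.05, and SAM called 4. At 48 h, beside 5.14% of all genes called higher and 6.87% called lower, FOS and FOSL1 rose (1.93 ± 0.26 and 0.93 ± 0.11) while PHLDA1 and IER3 fell (-0.96 ± 0.10 and -0.69 ± 0.10).

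**Figure D5:**
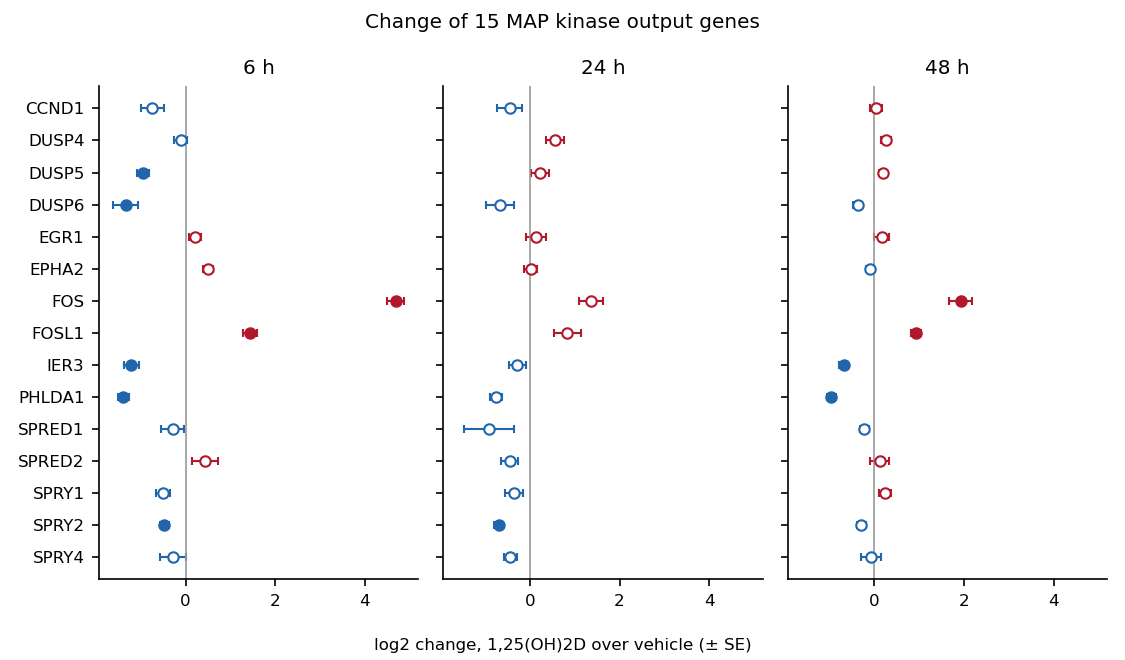
Log2 change with 1,25(OH)2D over vehicle (horizontal axis, error bars SE) of 15 genes driven by the MAP kinase cascade at 6, 24 and 48 h. Red is above 0, blue below 0, and filled points passed the test. FOS (4.69) and FOSL1 (1.44) rose at 6 h while PHLDA1, DUSP6, IER3, DUSP5 and SPRY2 fell.

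Of 14 tested genes described elsewhere as having ETS-dependent promoters, 2 were called at 6 h and 4 at 48 h, beside 3.41% and 12% of all 12008 genes. PTGS2, the inducible cyclooxygenase, and PLAU, the urokinase plasminogen activator, rose at 6 h by 2.62 ± 0.38 and 1.56 ± 0.11 (limma adjusted p = 0.00818 and 0.000248), and none fell. PLAU arrays lay between 10.25 and 10.46 with 1,25(OH)2D and between 8.594 and 8.956 with vehicle. At 24 h 0 of 14 were called (limma, 3 at an unadjusted p under 0.05 and 3 called by SAM). At 48 h SPRR1B and SPRR1A, proteins of the cornified envelope, and AGR2 rose by 1.82 ± 0.16, 1.28 ± 0.24 and 0.34 ± 0.079, and MET, the receptor of hepatocyte growth factor, fell by 0.59 on the log2 scale. SPRR1A was measured by an x_at probe set.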

How the data were processed

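Total RNA of RWPE1 cultures was hybridised to Affymetrix U133 Plus 2.0 arrays. The authors corrected, quantile-normalized and summarised all arrays with gcRMA (its version is not given in the sources used here) and deposited log2 intensities of 54613 probe sets and 62 controls. Quantile normalization gives every array the same distribution, so a shift of all transcripts would not be seen. Controls were dropped. For testing, probe sets were ranked by the value that 3 of 4 arrays of their best group reached, and the top 25986 were kept, as many as the study retained by its own filter. A gene stands for its brightest such probe set that carries 1 symbol. Of the probe sets tested, 21885 had 1 symbol, 1087 several and 3014 none in the platform annotation.

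Treatment was tested at each time with limma 3.58.1 (R 4.3.3) on 4 against 4 arrays, and times and the difference between effects in one fit of 24 arrays, with Benjamini-Hochberg adjustment. Named were, besides the 10 genes, any other ETS gene, up to 4 called rises and 4 called falls per list and time, and the 3 genes most like each member called with treatment. The fits were tested on simulated data with independent noise in each probe set and array. Such data lack the component that the arrays share, so they cannot show how the calls hold under it. Alternatives were other filters, scales, variance models, fits, the study's SAM (70 relabellings) and leaving out arrays. The members and lists were chosen with earlier results of these data known. The number of arrays limits the precision.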

Additional observations from a re-analysis of the deposited data

Results flagged for a closer look

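The highest or lowest array of a group stood further from the other 3 than Dixon's critical value allows in 5 of 54 combinations of gene and group, where chance flags about 1 in 20. ETS2 in vehicle at 48 h read 11.09 in replicate 2, against 11.18 to 11.19 in the others. ETV4 in vehicle at 24 h read 9.136 in replicate 1, against 8.585 to 8.672. ETV5 with 1,25(OH)2D at 24 h read 10.06 in replicate 1, against 10.11 to 10.12. ELF1 and ELK3 in vehicle at 6 h read 8.199 and 9.334 in replicate 1, against 8.749 to 8.862 and 10.11 to 10.27. Replicate 1 of vehicle at 6 and 24 h is among the 4 arrays that stood apart over all probe sets.

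The effect of 1,25(OH)2D differed between times by a test of the difference itself (48 h minus 6 h, limma on 24 arrays) for ETS2, 1.29 on the log2 scale (adjusted p = 0.00166), where the value was less negative at 48 h. Of the genes driven by the cascade it also differed for DUSP5 (1.14, adjusted p = 0.00385) and FOS (-2.76, adjusted p = 5.03e-05). Of those with described ETS-dependent promoters it differed for PLAU (-1.63, adjusted p = 1.2e-06), PTGS2 (-2.60, adjusted p = 0.0127), SPRR1A (1.74, adjusted p = 0.0142) and SPRR1B (2.10, adjusted p = 0.000747). Among 6 tested basal markers 2 were called, both with a negative difference. In this comparison 2.8% of all tested probe sets were called. ETS1 did not pass this test (0.40 ± 0.36 on 224833_at).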

How the results depend on the processing

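ETS2 at 6 h was called in all 18 alternatives (log2 change from -1.72 to -1.01), and so was its difference between 48 and 6 h in all 24. Member probe sets called at 6 h numbered 2, and 5 with all 24 arrays in one fit (1082 of all probe sets called, against 699), 4 with arrays centred on their medians, 5 with a replicate block (adjusted p of ETS1 from 0.00914 to 0.0314) and 5 with SAM (1661 of all), the added ones all of ETS1. At 24 h 0 became 1 with SAM and 3 without the 4 arrays that stood apart (5499 of all, against 92). At 48 h 2 became 1 with all 24 arrays (975 of all, against 2506) or without the filter. The single call between 48 and 24 h with 1,25(OH)2D became 0 with only the arrays of that contrast, without the filter or with an offset of 32. With 1 array left out the counts ran from 2 to 2 at 6 h, 0 to 0 at 24 h, 1 to 4 at 48 h (4 without treated replicate 2), 5 to 6 and 0 to 0 between times in vehicle, and 3 to 12 and 0 to 1 between times with 1,25(OH)2D (12 without replicate 1 at 24 h and 3 without replicate 3 at 6 h). Counts over all probe sets moved too. At 24 h they were 553 with all 24 arrays in one fit, 1494 with SAM and 49 with centred arrays, against 92. At 48 h they were 1644 without the filter and 1354 with the replicate block, against 2506. The difference between 48 and 6 h gave 469 with centred arrays and 1417 without the 4 arrays, against 727. With only the arrays of the contrast the counts between times were 1124 against 2033 (24 and 6 h) and 168 against 82 (48 and 24 h) in vehicle, and 878 against 4344 and 13 against 496 with 1,25(OH)2D. Without the 4 arrays they were 756 between 48 and 24 h in vehicle, and 6577 and 1408 with 1,25(OH)2D, and an offset of 32 gave 132 between 48 and 24 h in vehicle. The cause of these changes was not tested.

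Of 962 values of single genes under alternatives, 922 kept their side of the threshold, 32 lost and 8 gained it, and 0 called values changed sign, while 27 values past the threshold in neither did. Without the filter or under the stricter one (15 of 21 member probe sets kept) fewer or other probe sets share the adjustment. The labels do not say whether replicate numbers pair the arrays, and the main fits used no pairing. Deviations of same-numbered arrays correlated at r from -0.889 to 0.756, and at 6 h at 0.756, -0.366, 0.589 and 0.67 for numbers 1 to 4. These values cannot decide on pairing, because a single component carries most of the deviations. The replicate block called 824 probe sets at 6 h and 1 at 24 h and left the other member counts as they were. Dim probe sets of ELF3 and EHF limit what can be seen, and the 24 h group with 1,25(OH)2D is the least precise.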
